A study of Mus musculus with 4 samples.

Results

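Amino acid transporter genes were followed in the mouse small cell lung cancer line RPP631, exposed for 48 h either to the vehicle DMSO or to YKL at 100 nM. YKL is an inhibitor of the kinase CDK7 according to the series title. Each group held 2 bulk RNA sequencing libraries of the same line, and the labels give no genotype for it. The members were the protein-coding genes whose symbols belong to the solute carrier families Slc1, Slc6, Slc7, Slc36, Slc38 and Slc43, without Slc7a11. The patterns matched 65 symbols, from which 3 noncoding antisense genes and Slc7a11 were left out. This gave 61 members of the 54232 genes in the count table, and after low counts were filtered out 38 of them were tested, among 16749 genes. Of the other 23, 2 (Slc6a18 and Slc6a19) had no count in any library and 21 had at most 13 counts in any library. Every tested member had at least 13 counts in each library, so none entered the test through one group alone.

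Amino acids cross membranes through carriers that differ in substrate and in driving force. Slc1 and Slc38 carriers and most Slc6 carriers use the sodium gradient, Slc36 carriers are mostly proton-coupled, and many Slc7 carriers exchange one amino acid for another together with a heavy chain from the Slc3 family. In growing tumour cells these carriers supply essential amino acids and glutamine, and several of their genes are known targets of ATF4, the transcription factor of the amino acid deprivation response. The families also hold carriers of other substrates, among them creatine, taurine, GABA and monoamines. The pattern also took in Slc7a6os, a neighbour of Slc7a6 that belongs to no transporter family.

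With YKL, single transporters moved in opposite directions within 2 of the substrate classes, the cationic and the small neutral amino acids. Relative transcript levels of Slc43a1, Slc7a2, Slc1a1 and Slc1a5 rose, by 6.93-fold, 2.89-fold, 2.73-fold and 1.76-fold. Those of Slc6a9, Slc7a3 and Slc1a4 fell, to levels 4.09-fold, 3.53-fold and 2.33-fold below DMSO. The most abundant member, Slc7a5, which encodes a major importer of leucine and other large neutral amino acids, was not called. In all, edgeR's quasi-likelihood test called 7 of the 38 tested members (Benjamini-Hochberg adjusted p below 0.05), or 18.4%, where 3.54% of all 16749 genes tested were called. The 4 higher members stand beside 2.10% of all genes called higher, and the 3 lower members beside 1.44% called lower. The median log2 fold change (YKL over DMSO) of the tested members was 0.25, with 23 values above 0 and 15 below, and that of all genes tested was -1e-04. The median size of the change, whatever its sign, was 0.64 on the log2 scale among tested members and 0.35 among all genes tested. A log2 change over 1 in either direction was found in 10 members, or 26.3%, and in 12% of all genes tested. The groups did not overlap in 26 tested members, or 68.4%, against 52.3% of all genes tested. Whether replicates came from separate cultures is not given in the labels. The p-values therefore rest on the spread between these libraries, which may be technical.

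**Figure D1:**
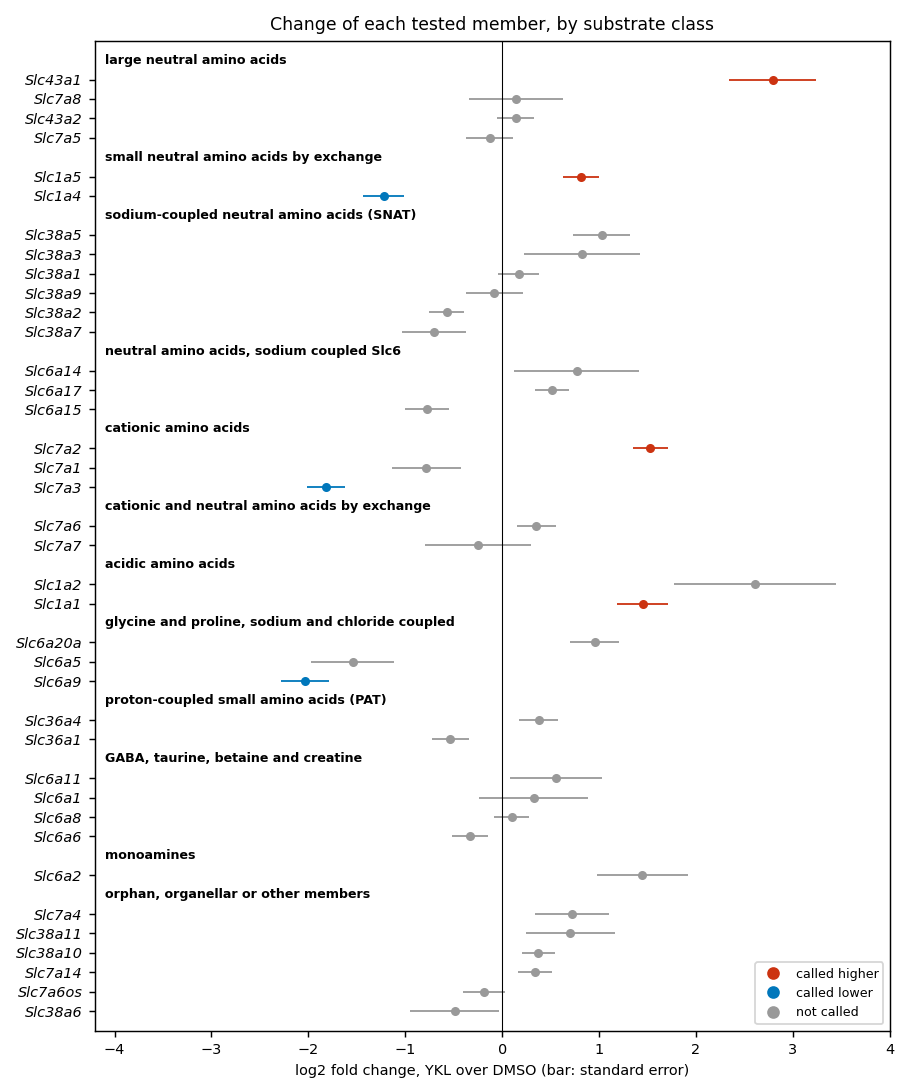
Log2 fold change of each tested member, YKL over DMSO, with its standard error as a bar, grouped by substrate class. Red points were called higher, blue points lower and grey points were not called. The cationic class and the small neutral class each hold 1 red and 1 blue point.

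Total assigned counts ran from 29817387 to 34189709 per library, and a floor of 3 counts corresponded to at most 0.0979 CPM. All 8 neuroendocrine markers examined were at 1 CPM or more in every library, a set typical of this tumour type, with summed levels of 4822 and 4171 CPM in DMSO and 3577 and 3471 CPM in YKL. One of them, Nkx2-1, a lung lineage transcription factor, fell from 403 and 408 CPM in DMSO to 168 and 201 CPM in YKL (log2 fold change -1.14, adjusted p = 0.0189, edgeR), a call that ended without either YKL library (adjusted p = 0.141 and 0.0742). Of the leukocyte markers reported here, the pan-leukocyte gene Ptprc was called higher, with 0 and 2 counts in DMSO against 25 and 23 in YKL, or at most 0.816 CPM (adjusted p = 0.0392, edgeR). Its call ended without either YKL library (adjusted p = 0.181 and 0.166), without the robust prior, with total count or upper quartile scaling and among protein-coding genes alone. The macrophage marker Cd68 had 44 and 80 counts in DMSO against 73 and 31 in YKL, with overlapping groups, and the T cell marker Cd3e had none. These 3 summed to 1.32 and 2.60 CPM in DMSO and 3.20 and 1.68 CPM in YKL. The fibroblast list summed to 12.7 and 25.1 CPM in DMSO and 44.5 and 18.1 CPM in YKL, nearly all of it Pdgfra, while Col1a2 had at most 3 counts. Endothelial markers summed to at most 2.06 CPM and alveolar and club cell markers to at most 2.28 CPM. The part of these differences in the results was not tested. In bulk samples, fewer cells of a type and less RNA per cell cannot be told apart, and a change shared by most transcripts would not show after scaling. The DMSO libraries differed more from each other than the YKL libraries did, with a chi-square per degree of freedom of 86.6 against 37.1 for genes with 20 or more counts in the pair.

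A few members held most of the transporter signal. Levels between genes are compared as CPM per kb of exon length and ranked by the mean of the 4 libraries, and on this scale the 10 most abundant members made up 73.0% of the summed level of all 61. Slc7a5 stood first with 68.7 ± 20.4 in DMSO and 62.8 ± 12.9 in YKL (mean ± SD, n = 2). Slc38a2, which encodes the sodium-coupled carrier SNAT2 of small neutral amino acids, followed with 54.2 ± 5.21 in DMSO and 36.5 ± 0.161 CPM per kb in YKL, and its DMSO range overlapped that of Slc7a5. Slc38a10, a family member without an assigned class here, had 37.2 ± 0.289 CPM per kb in DMSO and 48.2 ± 1.20 in YKL, so it lay below Slc38a2 in DMSO and above it in YKL. Slc1a5, Slc7a6, Slc1a4, Slc38a1, Slc6a8, Slc7a1 and Slc36a1 completed the first 10. The order differed between groups here too, since Slc36a4, outside the first 10, had a mean of 21.2 CPM per kb in YKL, above Slc1a4 (16.4), Slc36a1 (16.3) and Slc7a1 (15.8). The level summed over all members was 483 and 424 CPM per kb in DMSO and 419 and 453 in YKL, so these sums overlapped between the groups.

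**Figure D2:**
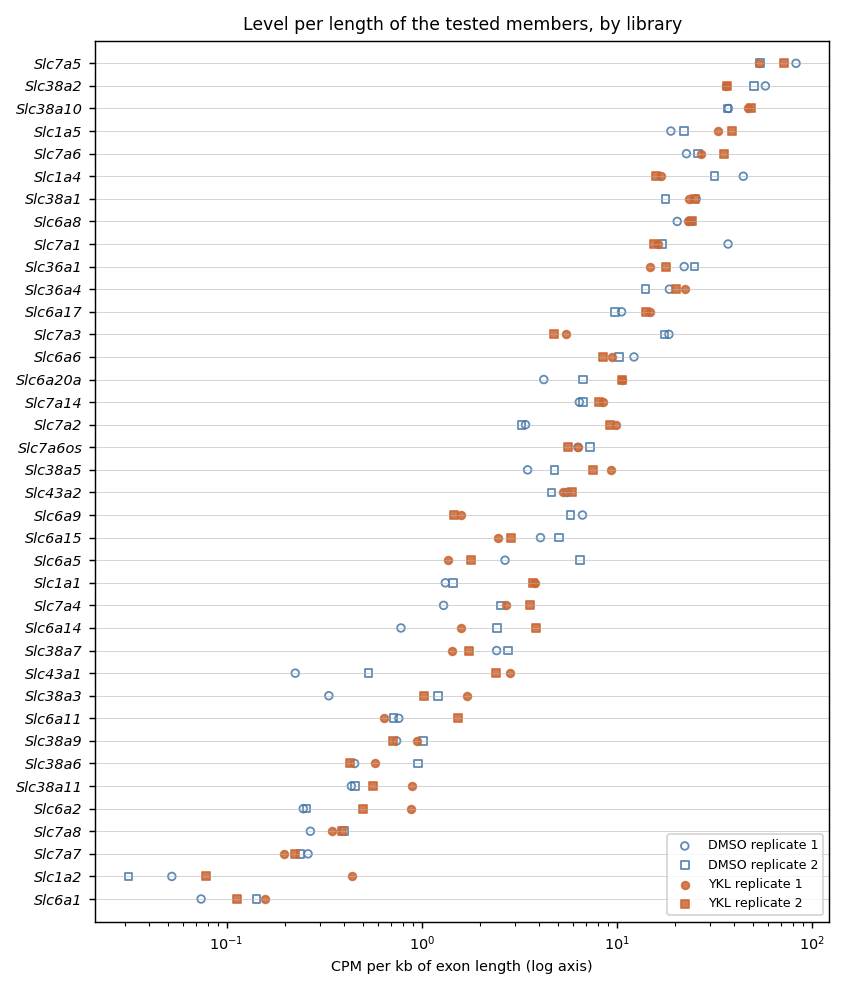
Level of the 38 tested members in CPM per kb of exon length on a log axis, one row per gene, ordered by the mean of 4 libraries. Open symbols are DMSO, filled symbols YKL, circles replicate 1 and squares replicate 2. For Slc43a1, Slc7a2 and Slc1a1 the filled symbols lie to the right of the open ones, and for Slc7a3 and Slc6a9 to the left.

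Among carriers of large neutral amino acids, 1 of 4 tested members was called, where 3.54% of all genes tested were called. Slc43a1 (ENSMUSG00000027075, chr2:84838850-84863594, mm10) encodes LAT3, a sodium-independent facilitator for branched-chain amino acids and phenylalanine. Replicates 1 and 2 held 43 and 96 counts of it in DMSO against 497 and 444 in YKL. These counts correspond to 1.29, 3.05, 16.2 and 13.8 CPM, and both YKL libraries stood well above both DMSO libraries, which themselves differed. The log2 fold change was 2.79 ± 0.45 (standard error; adjusted p = 0.0191, edgeR). It was 3.51 without DMSO replicate 2 and 2.30 without DMSO replicate 1, and the call ended without either YKL library (adjusted p = 0.0708 and 0.0544) and with total count scaling (0.0506). Per length, LAT3 transcripts remained a small part of the class, at 0.379 ± 0.218 CPM per kb in DMSO and 2.62 ± 0.302 in YKL.

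The related Slc43a2, encoding LAT4, had 55.9 and 46.5 CPM in DMSO and 53.3 and 59.5 CPM in YKL, so its groups overlapped (log2 fold change 0.14 ± 0.19, adjusted p = 0.74). The level of Slc43a1 relative to Slc43a2, both per length, was 0.0404 and 0.115 in DMSO against 0.535 and 0.407 in YKL. Slc43a3, whose product carries purine nucleobases, lies 73.0 kb from Slc43a1 on chromosome 2 and was not tested, with 0 and 1 counts in DMSO against 4 and 0 in YKL. Slc7a5, encoding LAT1, had 308 and 201 CPM in DMSO and 199 and 267 CPM in YKL. Both YKL values lay below DMSO replicate 1, and the groups overlapped (log2 fold change -0.13 ± 0.24, adjusted p = 0.819). Slc7a8, encoding LAT2, was low throughout, at 1.35 and 2 CPM in DMSO and 1.73 and 1.96 CPM in YKL.

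Carriers of cationic amino acids, which import arginine, lysine and ornithine, showed both directions. Slc7a3 (ENSMUSG00000031297, chrX:101079210-101086020) encodes CAT-3, a carrier best known from brain. It had 2347 and 2098 counts in DMSO against 637 and 579 counts in YKL, or 70.2, 66.6, 20.8 and 18 CPM. The libraries of each group lay close together and the groups were far apart (log2 fold change -1.82 ± 0.20, adjusted p = 0.00795). Slc7a2 (ENSMUSG00000031596, chr8:40862396-40922308) encodes CAT-2, which supplies arginine to nitric oxide synthase in macrophages. It had 31.1 and 29.7 CPM in DMSO and 91.0 and 84.7 CPM in YKL, again with little spread within a group (log2 fold change 1.53 ± 0.18, adjusted p = 0.00795). Of its exonic bases, 6.95% are shared with the noncoding gene Gm26584 on the other strand, which had 1 count in all libraries. Both calls held in all 13 refits described in the closing section.

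Slc7a1, encoding the widely expressed CAT-1, had 430 and 198 CPM in DMSO and 187 and 178 CPM in YKL. DMSO replicate 2 lay close to the YKL libraries and DMSO replicate 1 stood apart (log2 fold change -0.78 ± 0.35, adjusted p = 0.277). Without DMSO replicate 1 the log2 fold change was -0.12, and without DMSO replicate 2 it was -1.27. With all 4 libraries, Slc7a1 was called without the filter but not by DESeq2. Summed per length, the 3 cationic carriers came to 59.2 and 38.1 CPM per kb in DMSO and 31.7 and 29.5 in YKL. Slc7a3 made up 31.3% and 46.2% of that sum in DMSO and 17.4% and 16.1% in YKL, whereas Slc7a2 made up 5.76% and 8.54% in DMSO and 31.5% in each YKL library. The level of Slc7a2 relative to Slc7a3 was 0.184 and 0.185 in DMSO against 1.81 and 1.95 in YKL, so Slc7a3 was the higher of the pair in both DMSO libraries and Slc7a2 in both YKL libraries.

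**Figure D3:**
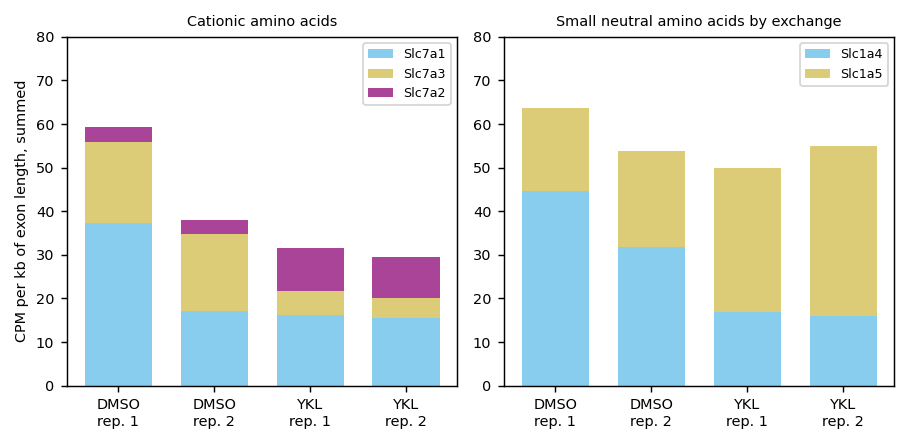
Summed level in CPM per kb of exon length of the cationic carriers (left) and of the small neutral exchangers (right) in each library, stacked by gene. Slc7a2 takes a larger part and Slc7a3 a smaller part of the cationic bar in both YKL libraries, and Slc1a5 takes the larger part of the small neutral bar there.

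The exchangers of small neutral amino acids also split. Slc1a4 (ENSMUSG00000020142, chr11:20302180-20332713) encodes ASCT1, which exchanges alanine, serine, cysteine and threonine. It had 175 and 125 CPM in DMSO and 66.1 and 62.3 CPM in YKL, with both YKL libraries below both DMSO libraries, which themselves differed (log2 fold change -1.22 ± 0.21, adjusted p = 0.0217). Its call ended without YKL replicate 1 or YKL replicate 2 (adjusted p = 0.0897 and 0.124), at log2 fold changes of -1.26 and -1.18. Slc1a5 (ENSMUSG00000001918, chr7:16781340-16798274) encodes ASCT2, a major importer of glutamine in tumour cells. It had 79.2 and 92.2 CPM in DMSO and 138 and 163 CPM in YKL, with no overlap of the groups (log2 fold change 0.81 ± 0.19, adjusted p = 0.0496). This adjusted p lay at the threshold, and the gene missed it in 6 refits (adjusted p from 0.0525 to 0.317). These used upper quartile or total count scaling, no robust prior, or left out DMSO replicate 1 or either YKL library. The level of Slc1a5 relative to Slc1a4, per length, was 0.425 and 0.697 in DMSO against 1.96 and 2.46 in YKL. Their summed level overlapped between groups, at 63.6 and 53.9 CPM per kb in DMSO and 49.9 and 55.0 in YKL, of which the third member of the class, Slc7a10, had at most 2 counts per library.

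Among the carriers of acidic amino acids, Slc1a1 (ENSMUSG00000024935, chr19:28835049-28913960) rose. It encodes EAAT3, which takes up glutamate, aspartate and cysteine. Its levels were 8.16 and 8.95 CPM in DMSO and 23.7 and 23.1 CPM in YKL, and the libraries of a group were nearly equal (log2 fold change 1.45 ± 0.26, adjusted p = 0.0249). Of its exonic bases, 42.6% overlap the gene 4430402I18Rik on the other strand, which had 154 counts over the 4 libraries against 2024 for Slc1a1. The call ended without YKL replicate 1 or YKL replicate 2 (adjusted p = 0.149 and 0.152) and with total count scaling (0.0506), with log2 fold changes from 1.39 to 1.48 over all refits. Slc1a2, which encodes the astrocyte carrier GLT-1, had 23 and 13 counts in DMSO against 176 and 33 in YKL. Its log2 fold change of 2.61 ± 0.83 (adjusted p = 0.132) was 0.89 without YKL replicate 1, the library that held most of its counts. Slc1a3, Slc1a6 and Slc1a7 had at most 5 counts in any library. Of the 38 tested members, 11 have exons that overlap an opposite-strand gene, among them 3 of the 7 called ones, Slc7a2, Slc1a1 and Slc6a9.

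The carriers of glycine and proline included the member with the largest decrease. Slc6a9 (ENSMUSG00000028542, chr4:117834506-117875198) encodes the glycine transporter GlyT1. It had 1149 and 939 counts in DMSO against 250 and 242 counts in YKL, or 34.3, 29.8, 8.16 and 7.51 CPM. The YKL libraries were close to each other and far below DMSO (log2 fold change -2.03 ± 0.25, adjusted p = 0.00795), and the call held in all 13 refits. Its exons overlap Ccdc24 over 27.8% of their bases, Gm17114 over 9.94% and B4galt2 over 0.895%, all on the other strand. Over the 4 libraries Slc6a9 had 2580 counts, Ccdc24 203, Gm17114 none and B4galt2 8736. Slc6a5, which encodes the neuronal glycine transporter GlyT2, had 19.3 and 46.9 CPM in DMSO and 9.79 and 12.9 CPM in YKL. Both YKL libraries were below both DMSO libraries, but the DMSO libraries differed widely (log2 fold change -1.54 ± 0.43, adjusted p = 0.106), and the estimate ran from -2.04 without DMSO replicate 1, where it was called, to -0.80 without DMSO replicate 2. Slc6a20a, encoding a proline carrier, had 17.3 and 27.5 CPM in DMSO and 43.4 CPM in each YKL library (log2 fold change 0.96 ± 0.25, adjusted p = 0.0705, edgeR). The same refits with all 4 libraries called Slc6a20a. Slc6a20a shares 13.8% of its exonic bases with the antisense gene Gm17120.

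**Figure D4:**
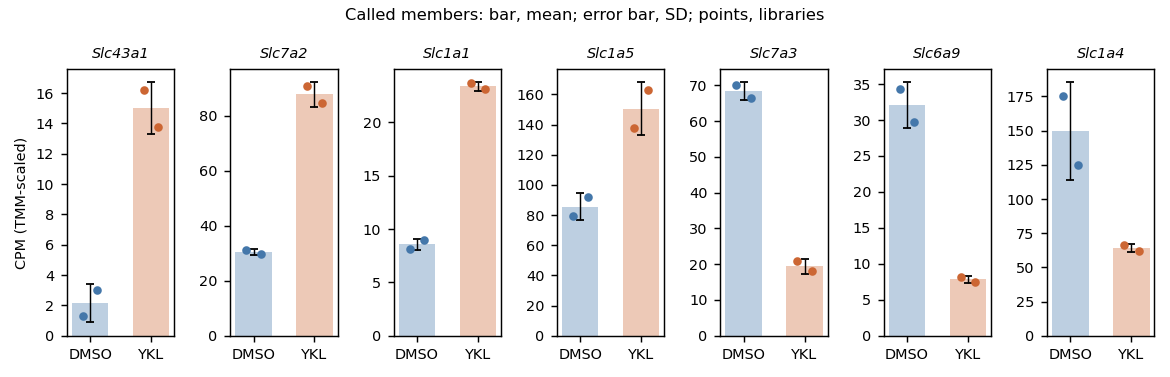
TMM-scaled CPM of the 7 called members in each library (points), with the group mean (bar) and SD (error bar, n = 2), each axis starting at 0. In all 7 panels both YKL points lie on one side of both DMSO points, as in 52.3% of all genes tested. The panels were chosen by their calls in these same libraries.

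Sequence at the starts of these genes was searched for 3 short elements. RefSeq promoter windows (GRCm38.p6, 250 bases before to 50 after a start) were found for 43 members, with 64 windows in all. Of the called members, Slc1a4, Slc6a9, Slc1a1 and Slc43a1 had windows. The core of the composite element of ATF4 and C/EBP, TGATGNAA on either strand, was present in 3 of the 43 members, Slc1a4, Slc7a7 and Slc6a21, and in 4.51% of all 27025 genes with windows. By window it was present in 4 of the 64 and in 3.97% of all 32851. The E-box CACGTG, a palindrome, was present in 9 of the 43 members and in 8.09% of all genes, or in 9 of the 64 windows and 7.15% of all windows. The antioxidant element TGACNNNGC on either strand was present in 9 of the 43 members and in 14% of all genes, or in 11 of the 64 windows and 12.4% of all windows. These elements can share bases, and a match is a description of letters, not a binding site. Windows from 110 bases before to 10 after the start are shown for the called members that held a match, with the matched letters in capitals. They are Slc1a4 (chr11:20332704-20332823, minus strand, composite element), Slc43a1 (chr2:84840213-84840332, plus strand, E-box and then antioxidant element) and a pair of Slc6a9 starts (chr4:117849240-117849359 and chr4:117855437-117855556, plus strand, antioxidant element), all printed 5′ to 3′ on the strand of the gene.
Slc1a4: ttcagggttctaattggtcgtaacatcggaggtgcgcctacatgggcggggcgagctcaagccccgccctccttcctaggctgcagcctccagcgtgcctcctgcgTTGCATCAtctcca
Slc43a1: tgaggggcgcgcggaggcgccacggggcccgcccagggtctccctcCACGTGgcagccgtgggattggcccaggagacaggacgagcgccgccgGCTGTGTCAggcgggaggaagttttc
Slc6a9, upstream start: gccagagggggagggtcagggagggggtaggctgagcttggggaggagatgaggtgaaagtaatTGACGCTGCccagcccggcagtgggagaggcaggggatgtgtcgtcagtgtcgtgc
Slc6a9, downstream start: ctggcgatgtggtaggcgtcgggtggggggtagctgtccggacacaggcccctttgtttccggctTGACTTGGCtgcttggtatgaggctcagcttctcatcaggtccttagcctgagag
In Slc1a4 the composite element spans the start itself, on the other strand. Slc43a1, Slc1a1 and Slc6a9 had no composite element in these windows.

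The sodium-coupled neutral amino acid carriers of the Slc38 family held no called member among 6 tested. Since 3.54% of all genes tested were called, this count was near the background. Slc38a2, whose transcript is known to rise when amino acids are scarce, had 512 and 447 CPM in DMSO and 321 and 323 CPM in YKL. Both YKL libraries lay below both DMSO libraries (log2 fold change -0.57 ± 0.18, adjusted p = 0.111), and the gene was called only without DMSO replicate 2 (-0.70, adjusted p = 0.0295). Its neighbour Slc38a1, encoding the glutamine carrier SNAT1, lies 44.5 kb away on chromosome 15 and had 441 and 306 CPM in DMSO and 407 and 433 CPM in YKL, with overlapping groups. Slc38a5, encoding SNAT5 for glutamine, asparagine and histidine, had 7.83 and 10.8 CPM in DMSO and 21.0 and 16.9 CPM in YKL (log2 fold change 1.03 ± 0.30, adjusted p = 0.0901). DESeq2 called it (adjusted p = 0.0143). The lysosomal members of this class were low. Slc38a9, the arginine sensor of mTORC1, had 12.4 and 16.9 CPM in DMSO and 15.8 and 11.9 CPM in YKL. Per length, Slc38a9 had 0.878 ± 0.189 CPM per kb in DMSO and 0.831 ± 0.165 in YKL. Slc38a7 had 2.59 ± 0.241 CPM per kb in DMSO and 1.59 ± 0.231 in YKL (adjusted p = 0.253, edgeR).

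Further members were not called. Slc36a1, encoding the lysosomal proton-coupled carrier PAT1, had 125 and 141 CPM in DMSO and 83.1 and 101 CPM in YKL (log2 fold change -0.53 ± 0.19, adjusted p = 0.145). Slc36a4, its relative, had the opposite sign, with 122 and 92.0 CPM in DMSO and 146 and 131 CPM in YKL (log2 fold change 0.38 ± 0.20, adjusted p = 0.319). Among Slc6 carriers of neutral amino acids, Slc6a15, encoding B0AT2 for branched-chain amino acids and proline, had 31.5 and 39.2 CPM in DMSO and 19.0 and 22.3 CPM in YKL (log2 fold change -0.78 ± 0.23, adjusted p = 0.0923). DESeq2, the fit without the filter and the fit with the replicate number as a block called it. Slc6a17, whose product loads neutral amino acids into synaptic vesicles, had 109 and 101 CPM in DMSO and 153 and 146 CPM in YKL (log2 fold change 0.51 ± 0.18, adjusted p = 0.137). In each of these 4 genes the groups did not overlap, as in 52.3% of all genes tested. Nor did they in the y+L exchanger gene Slc7a6, with 104 and 119 CPM in DMSO and 123 and 162 CPM in YKL (adjusted p = 0.351).

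Members that carry other substrates were also not called. The creatine transporter gene Slc6a8 had 107 and 124 CPM in DMSO and 120 and 127 CPM in YKL, and the taurine transporter gene Slc6a6 had 104 and 86.7 CPM in DMSO and 79.7 and 71.9 CPM in YKL. The noradrenaline transporter gene Slc6a2 had 52 and 51 counts in DMSO against 169 and 101 counts in YKL (log2 fold change 1.44 ± 0.47, adjusted p = 0.119), though DESeq2 called it. The dopamine and serotonin transporter genes Slc6a3 and Slc6a4 had at most 13 counts in any library and were not tested. Of the remaining members, Slc38a10 had 240 and 238 CPM in DMSO and 304 and 315 CPM in YKL (log2 fold change 0.37 ± 0.17, adjusted p = 0.247). Including Slc38a10, the 6 tested members without a class had log2 fold changes from -0.49 (Slc38a6) to 0.72 (Slc7a4).

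Other genes of amino acid handling were counted in lists outside the member families. Of 18 tested heavy chains and further amino acid carriers, 3 rose and none fell, beside 2.10% of all genes tested called higher and 1.44% called lower. The median log2 fold change of the list was -0.12. Slc16a10, encoding the aromatic amino acid carrier TAT1, had 67.9 and 57.7 CPM in DMSO and 150 and 178 CPM in YKL (log2 fold change 1.39 ± 0.19, adjusted p = 0.0111). Slc15a4, a lysosomal carrier of histidine and peptides, had 51.8 and 34.9 CPM in DMSO and 111 and 91.9 CPM in YKL (1.23 ± 0.23, adjusted p = 0.0275). Slc25a15, the mitochondrial ornithine carrier, had 49.9 and 52.7 CPM in DMSO and 89.3 and 95.2 CPM in YKL (0.85 ± 0.18, adjusted p = 0.0382). Without YKL replicate 1, 1 of these carriers was called, and without YKL replicate 2 none. Slc3a2, the heavy chain that pairs with LAT1, was not called, at 203 and 150 CPM in DMSO and 148 and 176 CPM in YKL (-0.12 ± 0.21, adjusted p = 0.793).

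Of 34 tested genes for amino acid sensing by mTORC1, 1 fell and none rose, beside 1.44% of all genes tested called lower and 2.10% called higher, so the count was near the background. The median log2 fold change was -0.16. The 1 called gene was Kptn, a subunit of the KICSTOR complex, at 19.7 and 20.2 CPM in DMSO and 5.71 and 7.92 CPM in YKL (-1.55 ± 0.30, adjusted p = 0.029), a call that ended without either YKL library. Sesn2, the leucine sensor, had 51.1 and 40.0 CPM in DMSO and 25.5 and 25.4 CPM in YKL (-0.84 ± 0.21, adjusted p = 0.0625) and was not called.

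Of 23 tested genes of the amino acid deprivation response, 9 fell and none rose, beside 1.44% of all genes tested called lower and 2.10% called higher. In 22 of them the log2 fold change was below 0 (median -0.81). Aldh18a1, which makes the precursor of proline, had 141 and 117 CPM in DMSO and 44.2 and 42.2 CPM in YKL (-1.58 ± 0.19, adjusted p = 0.00795). Phgdh, the first enzyme of serine synthesis, had 18.6 CPM in each DMSO library and 4.47 and 5.03 CPM in YKL (-1.97 ± 0.30, adjusted p = 0.0141). Asns, asparagine synthetase, had 415 and 359 CPM in DMSO and 164 and 199 CPM in YKL (-1.09 ± 0.19, adjusted p = 0.0223). Atf4 itself had 454 and 275 CPM in DMSO and 182 and 103 CPM in YKL and was not called (-1.36 ± 0.35, adjusted p = 0.0998). Without YKL replicate 1 or YKL replicate 2 the count of 9 became 2 or 1. The transporter members moved in both directions while the genes of this list that changed all fell. The difference between the lists was not tested.

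**Figure D5:**
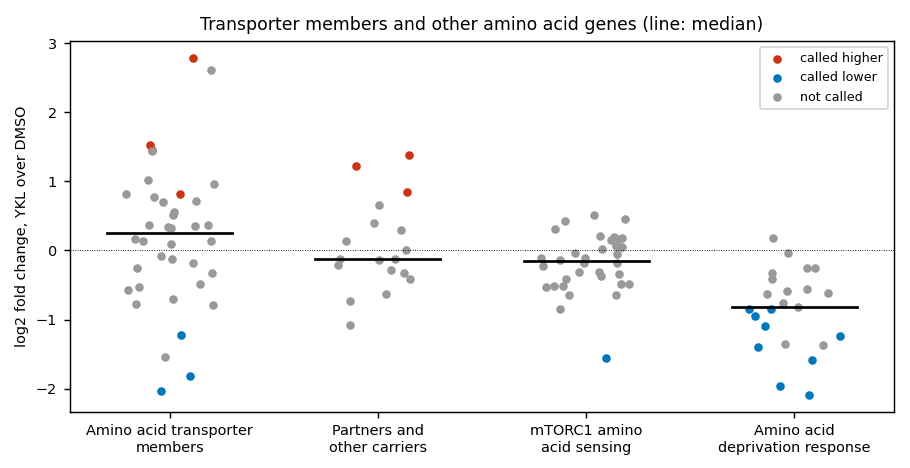
Log2 fold change, YKL over DMSO, of the tested transporter members and of 3 other lists of amino acid genes, 1 point per gene and a line at the median. Red points were called higher, blue points lower. The members spread to both sides of 0, and called points of the deprivation response lie below it.

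The authors' deposited table of their own comparison held 38 members, of which 21 had an adjusted p below 0.05 (DESeq2). The authors' deposited table gave 12 of these as higher and 9 as lower. The share of all genes below 0.05 in that comparison was not counted. The 21 members therefore cannot be set beside the 3.54% of all genes called by edgeR. All 7 members called here were among the 21. In the authors' deposited table the log2 fold change was -1.69 for Slc7a3 and 2.30 for Slc43a1.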

How the data were processed

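Total RNA of RPP631 cells, 2 libraries in DMSO and 2 in YKL, was sequenced. The submitters' processing notes name STAR 2.5.2b, featureCounts and the build mm10. The authors deposited raw counts per gene, with exon positions and a summed exon length. The strand setting is not given in the sources used here, so reads where exons of opposite strands overlap cannot be assigned with certainty. The authors also deposited their own DESeq2 comparison, which gives p-values, adjusted p-values, log2 fold changes, a Wald score and a mean signal of normalized counts. It is used only where it is named.

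Raw counts were tested with edgeR 4.0.16 in R 4.3.3 on all genes after filterByExpr (minimum count 10, minimum total 15), with TMM scaling and a robust quasi-likelihood test on 2 residual degrees of freedom. Benjamini-Hochberg adjustment ran over all genes tested. Standard errors are the absolute log2 fold change over the square root of F. CPM is scaled by TMM, and levels between genes are divided by exon length in kb. On data simulated for YKL against DMSO (5 runs, a median of 16351 genes, 200 of them changed), 31.1% of 2-fold and 75.5% of 4-fold changes were recovered, and 4.14% of calls were false. The simulation gave each gene a spread set by its abundance, the same in both groups. In the data the DMSO libraries differed more from each other than the YKL libraries, so these rates may not hold there.

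Members, substrate classes, lists and motifs were chosen with earlier results of these data known. Named were all called members, members with an unadjusted p under 0.05, the most abundant per class and the first 10 by level, Slc7a3 and Slc43a1, and up to 3 genes per list. Sesn2, Slc3a2, Atf4 and the remaining named genes were chosen after their values were seen.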

Additional observations from a re-analysis of the deposited data

How the results depend on the processing

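Slc7a2, Slc7a3 and Slc6a9 were called in all 13 refits. Over the 7 called members and 13 refits, 77 of 91 values kept direction and call, 14 lost the call and 0 reversed. Uncalled named members gave 193 values, of which 25 became calls and 4 changed sign. With 1 library left out, log2 fold changes ran from -0.44 (without DMSO replicate 2) to 0.21 (without DMSO replicate 1) for Slc7a5, which was also above 0, at 0.068, without YKL replicate 1. They ran from -0.10 (without DMSO replicate 2) to 0.46 for Slc38a1 and from -0.0071 (without DMSO replicate 1) to 0.18 for Slc6a8. Against 4 members called higher and 3 lower, total count scaling gave 1 and 3, no filter 7 and 6, and DESeq2 1.42.0 8 and 5. Without the 11 tested members that have overlapping exons the counts were 2 and 2. The number of genes tested differed between some settings, and shares of all genes per setting were not computed. Leaving out 1 library gave 1 to 11 higher and 2 to 5 lower. Counts over all genes moved with these settings too, from 593 to 169 with total count scaling, 331 with upper quartile scaling, 1740 without the filter, 236 without the robust prior and 1466 by DESeq2, and to between 71 and 2453 with 1 library left out. The carrier list, with 3 calls, had 1 with total count scaling or no robust prior and 0 to 4 with 1 library left out. The mTORC1 list, with 1 call, had 0 with total count scaling or no robust prior, 2 without the filter or by DESeq2, and 0 to 5 with 1 library left out. The deprivation list, with 9 calls, had 3 with total count scaling, 4 with upper quartile scaling or no robust prior, 14 without the filter, and 1 to 15 with 1 library left out.

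The labels do not say that equal replicate numbers were paired, and with 2 pairs this was not established (correlation of deviations 0.15 across genes). With the replicate number as a block, 7 members were higher and 5 lower, 1387 genes were called in all, and 2 mTORC1 genes. Members under about 13 counts could not be tested at this depth, and with 2 libraries per group changes of 2-fold were often not recovered in simulated data. Counting floors cover counting error only. The causes of lost calls were not tested.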
